A study of Homo sapiens with 9 samples.

Results

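CTCF peaks of ZNF143 knockout cells were compared with those of wild-type cells, both mapped by ChIP-nexus. This assay is a chromatin immunoprecipitation in which exonucleases trim the DNA back towards the bound protein, so that a peak and its highest point, the summit, lie close to the contact. The cells were HEC-1-B, an established human line of uterine adenocarcinoma, either wild type or labelled ZNF143KO, and the CTCF antibody was the same in both. Neither group carried a treatment, and the labels do not say whether the knockout was 1 clone. With 1 library a group, differences carry no replicate check and genotypes were not tested against each other. The knockout rests on its label, since ZNF143 binding in those cells was not analysed here.

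Members were chosen by sample, chromosome and deposited significance: all CTCF peaks of both libraries on chromosomes 1 to 22 and X with a −log10 q of at least 5. That gave 51970 wild-type and 63420 knockout peaks, 115390 of the 344232 peaks that pass the same rule in all 9 groups of the series. Any peak with 1 bp or more in common with the opposite list is called shared here, and the rest are wild-type-only or knockout-only. Brackets after a share hold its exact (Clopper-Pearson) 95% interval, and those after a median hold a binomial 95% interval. Both cover counting error over peaks alone.

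CTCF is a zinc-finger protein that binds a long DNA motif and halts the cohesin ring, whose RAD21 subunit was mapped in the same cells. Chromatin loops anchored where cohesin halts help shape how enhancers meet promoters. ZNF143 is another zinc-finger protein, known for binding at promoters and for its frequent presence at CTCF sites, and the series asks how its loss alters CTCF and cohesin.

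Nearly all wild-type CTCF sites were found again in the knockout list, and the knockout list held many further, weaker ones. Of the wild-type peaks, 2825 of 51970 had no knockout partner, which is 5.44% (5.24 to 5.63). Of the knockout peaks, 14359 of 63420 had no wild-type partner, 22.6% (22.3 to 23.0). The 49145 shared wild-type peaks met 49061 shared knockout peaks, and 48900 of these meetings were one-to-one pairs. Splits and mergers were rare: 24 wild-type peaks spanned 2 or more knockout peaks and 110 knockout peaks spanned 2 or more wild-type peaks.

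Depth differed between the libraries and bears on every count. A background of 8.64 reads per kb was derived for the wild-type library and 18.9 for the knockout library, a ratio of 2.19. When both lists were held to 51970 peaks by signal, 12.6% of wild-type and 12.8% of knockout peaks lacked a partner. Lists of equal length that pair almost entirely one-to-one must leave nearly equal shares unpartnered. The closeness of these 2 shares was therefore set by the rule and cannot tell what part depth had. A reciprocal overlap of 50% raised the wild-type share to 14.1%, and a −log10 q of at least 10 lowered it to 2.44%.

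At the threshold itself the lists differed in reach. Among wild-type peaks just inside it, with a −log10 q of 5 to 6, 439 of 1578 (27.8%) were wild-type-only, and among such knockout peaks 192 of 261 (73.6%) were knockout-only. The threshold left out 1012 wild-type peaks and 0 knockout peaks. Of those left-out wild-type peaks, 645 (63.7%, 60.7 to 66.7) lay over a knockout peak, and they met 640 knockout-only peaks, 4.46% of that class.

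Peaks without a partner were the weak ones of their list. Strength is given by the authors' signal value, a fold enrichment over local background, ranked within each list so that the strongest peak is near percentile 100. The median wild-type-only peak stood at percentile 9.90 (9.47 to 10.4, quartiles 4.28 and 17.7), against 52.7 (52.3 to 53.1) for shared wild-type peaks. Knockout-only peaks had their median at percentile 16.7 (16.4 to 17.0, quartiles 8.25 and 26.9), against 61.2 (60.9 to 61.6) for shared knockout peaks. With both lists at 51970 peaks the medians of the unpartnered classes were close, at percentile 12.1 (11.8 to 13.1) for wild-type-only and 12.4 (12.0 to 12.9) for knockout-only peaks. At a −log10 q of at least 10 they were 6.26 and 18.7.

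Absence fell off along the signal deciles of both lists. In the weakest decile of the wild-type list 27.4% of peaks lacked a partner, in the second 16.0%, in the third 8.31% and in the fourth 2.39%. In the strongest 4 deciles 0 of 20789 wild-type peaks were missing from the knockout, which allows a share of up to 0.0177% by the exact interval. No strong wild-type CTCF site was therefore without a knockout peak in these lists. The knockout list had a longer tail: 68.3% of its weakest decile and 66.0% of the second were knockout-only, then 46.5%, 29.5%, 11.2% and 3.71% in deciles 3 to 6. Its strongest 4 deciles still held 80 knockout-only peaks of 25368 (0.315%, 0.250 to 0.392).

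**Figure D1:**
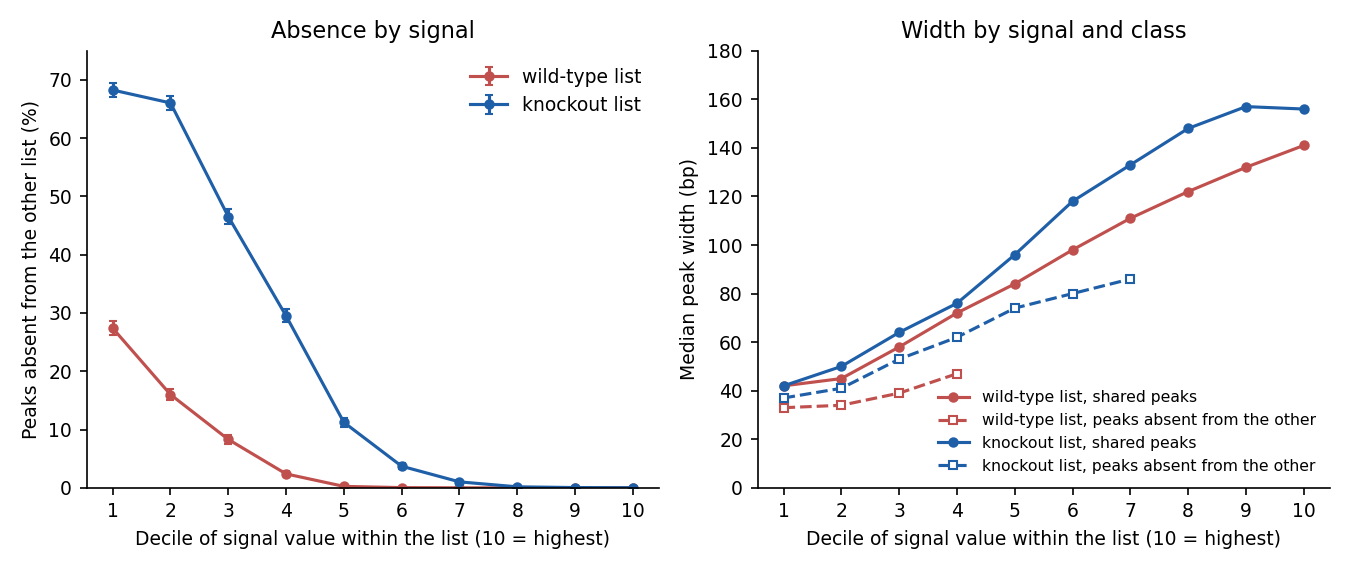
Left, the share of each list's CTCF peaks that lack a partner (%, bars are exact 95% intervals) by decile of signal value; right, median peak width (bp) of shared and unpartnered peaks by the same deciles, shown where at least 20 peaks exist. Absence drops from 27.4% (wild type) and 68.3% (knockout) in the weakest decile to 0 and 0.0158% in the strongest, and unpartnered peaks are narrower at every decile shown.

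The read counts behind the peaks describe the same gradient on a scale set by depth. A whole-number read count at the summit and a local background were solved from each peak's deposited values. The median summit count was 9 reads for wild-type-only and 22 for shared wild-type peaks, and 14 for knockout-only and 36 for shared knockout peaks. The lowest local background in the knockout list was 2.03 times that in the wild-type list. Divided by this ratio, the median knockout-only summit equals 6.91 reads, where the lowest count of any wild-type peak was 6. After this scaling 35.0% (34.2 to 35.8) of knockout-only peaks were under that lowest wild-type count, and 71.0% were under 8, the median count in deciles 1 and 2 of the wild-type list. Depth and genotype cannot be told apart here.

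Unpartnered peaks were also narrow. The median width was 35 bp (34 to 36) for wild-type-only peaks and 95 bp (94 to 95) for shared wild-type peaks. Knockout-only peaks had a median of 46 bp (46 to 47) and shared knockout peaks 123 bp (122 to 123). The shortest peak was 27 bp in the wild-type list and 25 bp in the knockout list, so many unpartnered peaks were close to the smallest size called. Peaks of at most 30 bp made up 34.8% of wild-type-only and 3.91% of shared wild-type peaks, and 19.1% of knockout-only and 1.83% of shared knockout peaks. At the other end, 0.920% of wild-type-only and 2.26% of knockout-only peaks were wider than 100 bp.

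Width grew with signal in both lists, so classes were also compared within deciles. Within the weakest wild-type decile the median was 33 bp without and 42 bp with a partner, and in the fourth it was 47 and 72 bp. Among knockout peaks it was 37 and 42 bp in the weakest decile and 74 and 96 bp in the fifth. Unpartnered peaks were thus narrower than shared peaks of the same decile.

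Where a site had a peak in both libraries, the knockout peak was usually the wider. Over the 48900 one-to-one pairs the median width was 95 bp in wild type and 123 bp in the knockout, and the median difference within a pair was 24 bp (23 to 24, quartiles 5 and 43). The knockout peak was wider in 80.9% of pairs, narrower in 18.0% and equal in 1.17%. The library of the untreated CTCF-AID line, in which CTCF carries an auxin-inducible degron and auxin time was 0 h, also gave wider peaks than wild type, with medians of 174 and 118 bp at 28623 paired sites. The label of that line gives no ZNF143 knockout. Its shortest peak was 44 bp, against 27 bp in wild type and 25 bp in the knockout, so the smallest size called differed. The part of this in the widths was not tested.

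The order of the pairs by signal was broadly kept. Spearman's rho of the signal values was 0.798 across the 48900 pairs, a description over peaks that share 2 libraries. With pairs ranked within each list, the median absolute difference in rank was 11.7 percentile points (quartiles 5.29 and 20.9). A pair stood over 25 points higher in the knockout in 8.92% of cases and over 25 points lower in 8.41%. The highest summit count was 54 reads in the wild-type list and 50 in the knockout list, reached by 0.260% and 2.08% of peaks, and counts do not order the sites that reached it.

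Over all pairs, those with a ZNF143 peak in wild-type cells had a median rank difference of -3.56 points (25330 pairs), and those without one had 2.37 points (23570 pairs). Pairs with ZNF143 lie higher in the wild-type ranking, so pairs were also compared in 10 groups of wild-type rank. In groups 4 to 9 the median knockout rank was higher at pairs with ZNF143. The intervals overlapped in the ninth, at 79.3 (78.7 to 79.9) with and 76.7 (71.2 to 81.0) without, the latter from 129 pairs. Pairs with ZNF143 also kept a higher median wild-type rank in each of these groups, such as 55.5 against 54.2 in the sixth and 75.1 against 73.9 in the eighth. In the fifth group the median knockout rank was 49.7 (48.2 to 51.1) for 1911 pairs with a wild-type ZNF143 peak. For 3004 pairs without one it was 44.4 (43.5 to 45.3), and the median wild-type ranks were 45.7 with and 44.5 without. In the seventh group the median knockout ranks were 65.5 and 61.6, and in the eighth 71.9 and 66.5. In the strongest group they were 86.4 with and 86.1 without ZNF143, the latter from 31 pairs. Groups 1 to 3 had the opposite order, with medians of 0.426 with and 13.1 without ZNF143 in the weakest, 7.23 and 17.0 in the second, and 23.2 and 24.8 in the third, where the intervals overlapped. Local background moved with this difference: in the weakest group it was 23.3 times the lowest of the wild-type list at pairs with ZNF143 and 1.15 times at pairs without, and in the second 2.67 and 1.18 times. In the fifth group these values were 1.75 and 1.46. The part of local background in the order was not tested.

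Overlap with ZNF143 was compared between wild-type-only and shared peaks overall and at like signal. Overall 8.92% (7.89 to 10.03) of wild-type-only and 51.8% (51.3 to 52.2) of shared wild-type peaks lay over a wild-type ZNF143 peak, but strong CTCF peaks carry ZNF143 far more often. In the weakest decile the shares were 10.8% (9.20 to 12.5) without and 8.81% (7.92 to 9.76) with a knockout partner. They were 5.04% and 4.83% in the second decile, 7.89% and 8.11% in the third, and 17.7% (11.5 to 25.6) and 15.8% (14.8 to 16.8) in the fourth. The higher share was that of wild-type-only peaks in deciles 1, 2 and 4 and that of shared peaks in decile 3, and these differences were not tested. Without peaks of high local background, over 5 times the lowest of the list, 3.95% of all wild-type-only peaks overlapped ZNF143, and with both lists at 51970 peaks 14.6% did. With a reciprocal overlap of 50%, 34.1% of shared wild-type peaks did.

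Knockout-only peaks lay at sites where wild-type ZNF143 peaks were scarce, but the way they were chosen bears on this. They have no wild-type CTCF peak past the threshold by definition. In the wild-type list, ZNF143 overlap of shared peaks went from 4.83% in the second decile to 99.3% in the strongest. Comparison within knockout deciles does not match wild-type CTCF signal, so a low share is in part built in. Of 14359 knockout-only peaks, 243 (1.69%, 1.49 to 1.92) overlapped a wild-type ZNF143 peak. With a reciprocal overlap of 50% the share was 0.901%. Shared knockout peaks did so in 7.34% of cases in the second decile and 45.0% in the sixth, against 0.887% and 2.13% for knockout-only peaks of those deciles. In deciles 1 to 6 the knockout-only share ranged from 0.887% to 2.75%, and among the 80 strongest it was 1 of 80.

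Cohesin was present at many knockout-only peaks. RAD21 peaks of the knockout cells covered 45.2% (44.3 to 46.0) of them, and RAD21 peaks of wild-type cells covered 22.9% (22.3 to 23.6). Both RAD21 lists covered 21.0%, the knockout list alone 24.2%, the wild-type list alone 1.94%, and neither 52.9%. The share grew with signal, from 31.0% over knockout RAD21 in the weakest decile to 73.5% (70.1 to 76.7) in the fifth and 84.6% (73.5 to 92.4) in the seventh. Shared knockout peaks of the same deciles reached 50.9%, 87.5% and 97.8%. Over all deciles, shared knockout peaks also leaned to knockout RAD21, with 88.0% over it and 78.7% over wild-type RAD21. The knockout RAD21 list alone covered 10.3% of them and the wild-type list alone 1.02%. The knockout RAD21 list was longer, with 56861 peaks against 45559. At a −log10 q of at least 10, knockout-only peaks had 46.8% over knockout and 17.6% over wild-type RAD21. With CTCF lists of equal size these were 57.3% and 31.6%. The part of list length was not tested.

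Most of the 80 strongest knockout-only peaks lay over cohesin. Of these 80, 68 (85.0%, 75.3 to 92.0) overlapped a knockout RAD21 peak and 51 (63.8%, 52.2 to 74.2) a wild-type RAD21 peak, although no wild-type CTCF peak past the threshold was there. Both RAD21 lists had a peak at 48 of the 80. The CTCF library of the CTCF-AID line at 0 h had a peak at 9 of the 80 (11.3%, 5.28 to 20.3). All these shares were under those of shared knockout peaks in deciles 7 to 10. By decile, knockout RAD21 covered 97.8% to 99.9% of those shared peaks, wild-type RAD21 93.0% to 99.1% and CTCF-AID 0 h 70.0% to 92.9%.

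Wild-type-only peaks seldom had cohesin. Wild-type RAD21 peaks covered 12.8% (11.6 to 14.1) of them and knockout RAD21 peaks 18.1% (16.7 to 19.6), and 76.4% overlapped neither. With both lists at 51970 peaks these shares were 23.6% over wild-type and 35.6% over knockout RAD21. The share over wild-type RAD21 was 7.62% at a −log10 q of at least 10 and 21.3% with a reciprocal overlap of 50%. Their shares stayed low at like signal: in the third wild-type decile, 14.8% (11.6 to 18.6) of wild-type-only and 51.8% (50.3 to 53.2) of shared peaks overlapped wild-type RAD21. None of the other 4 lists used (RAD21 of both genotypes, wild-type ZNF143 and CTCF-AID 0 h CTCF) had a peak at 71.9% of wild-type-only, 51.6% of knockout-only and 10.1% of shared wild-type peaks.

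The CTCF-AID 0 h list, from cells with neither knockout nor auxin exposure, recovered few unpartnered peaks of either kind. It covered 6.16% (5.30 to 7.11) of wild-type-only, 3.43% (3.13 to 3.74) of knockout-only and 58.6% (58.2 to 59.1) of shared wild-type peaks. It missed 44.2% of all wild-type peaks. In wild-type deciles 1 to 4 it covered 8.30%, 2.52%, 4.41% and 12.1% of wild-type-only peaks. For shared peaks of those deciles the shares were 13.5%, 11.2%, 18.4% and 30.3%, so the gap was smaller than over the whole list. In the fifth knockout decile it covered 4.77% of knockout-only and 36.5% of shared peaks. Without peaks of high local background the wild-type-only share was 2.299%, with both lists at 51970 peaks it was 14.1%, and at a −log10 q of at least 10 it was 9.38%. The knockout-only share was 5.90% with a reciprocal overlap of 50%. Most CTCF-AID 0 h peaks were in both other lists: of 30064, 4.10% were absent from wild type and 3.11% from the knockout. Of the 1234 absent from wild type, 462 (37.4%, 34.7 to 40.2) had a knockout peak. Of the 934 absent from the knockout, 162 (17.3%, 15.0 to 19.9) had a wild-type peak.

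**Figure D2:**
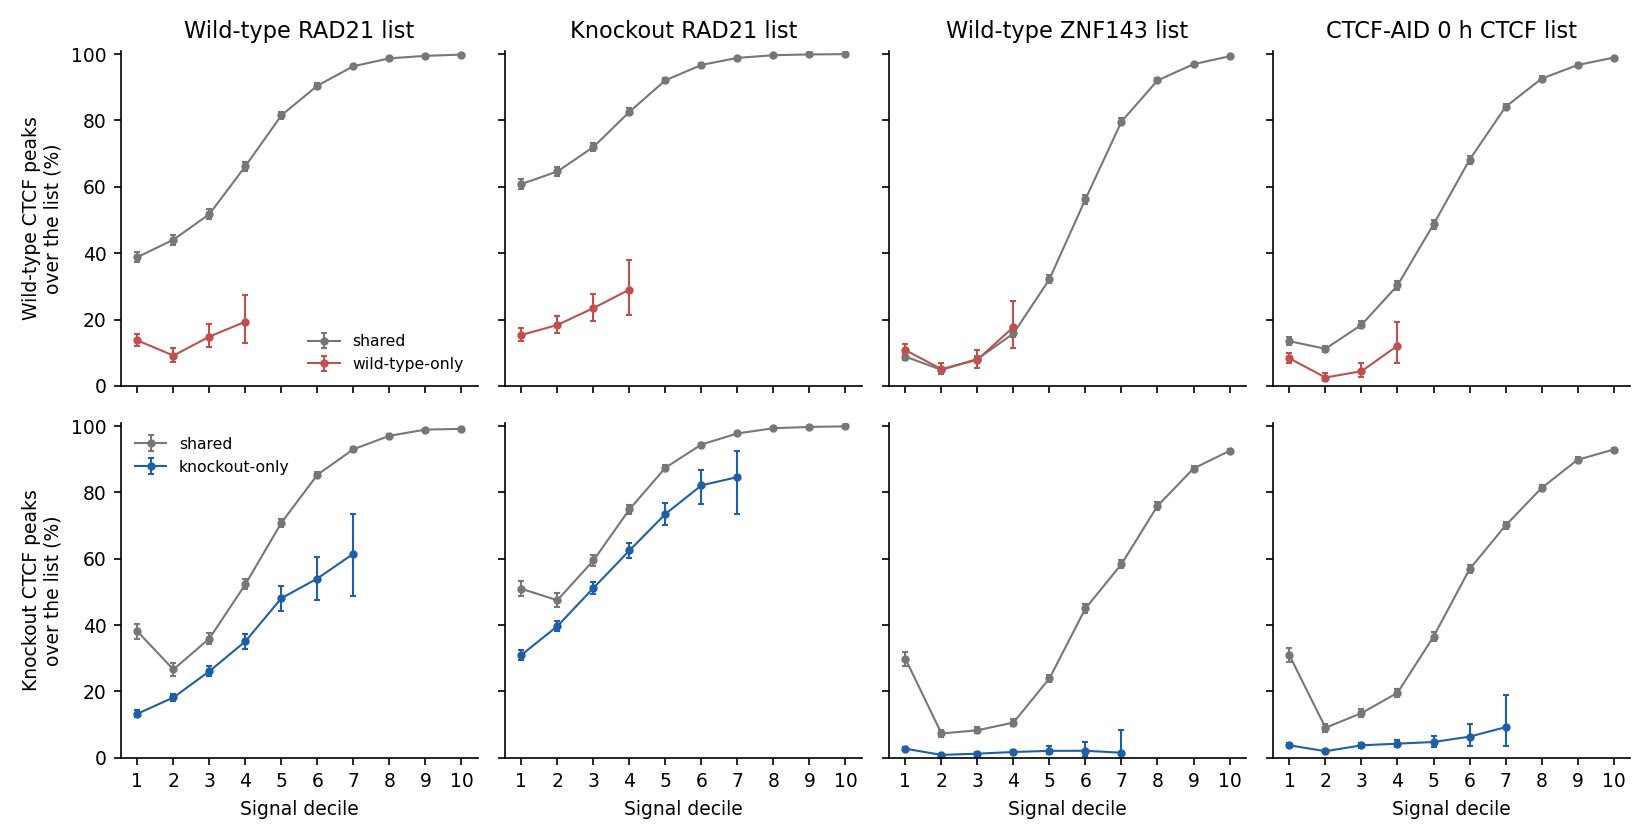
Share (%) of wild-type CTCF peaks (top row) and knockout CTCF peaks (bottom row) that overlap the RAD21, ZNF143 or CTCF-AID 0 h list named above each column, by signal decile, for shared (grey) and unpartnered (coloured) peaks, with exact 95% intervals and at least 20 peaks a point. In decile 1, 10.8% of wild-type-only and 8.81% of shared wild-type peaks overlap ZNF143, and knockout-only peaks lie between 0.887% and 2.75% in deciles 1 to 6.

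Summits of paired peaks lay close together in both genotypes. Only overlapping peaks were paired, so peak widths cap the shift, and a summit that moved farther would leave unpartnered peaks. The median absolute distance between paired summits was 8 bp (8 to 8, quartiles 3 and 15), and 4.25% of pairs had their summits on the same base. Of all pairs, 39.5% lay within 5 bp, 61.6% within 10 bp, 86.0% within 20 bp and 99.5% within 50 bp. The shifts had no side along the chromosome: 47.7% of knockout summits lay at a higher coordinate and 48.1% at a lower one, with a median signed shift of 0 bp. The strand of the CTCF motif was not read, so shifts along the motif were not measured.

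The weakest pairs were the least exact. The median absolute shift was 10 bp (quartiles 4 and 19) in the weakest wild-type decile, 8 bp in the fourth and 6 bp (quartiles 3 and 13) in the strongest. Relative to the narrower peak of the pair, the median shift was 8.85% of its width. Shifts of over 50 bp were most frequent in wide peaks. They were found at 12.1% (9.41 to 15.1) of 531 pairs whose wild-type peak was at least 200 bp wide. In the narrower width classes the shares were 0.312% to 1.00%. Wide peaks leave more room for a shift under the overlap rule, so this order is in part built in.

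Summits of the CTCF-AID 0 h library, which is not a knockout by its label, lay farther from the wild-type ones. Their median shift was 11 bp (quartiles 5 and 19) over 28623 pairs, and 49.0% were within 10 bp. At 28406 sites paired in all 3 CTCF libraries the median distance from the wild-type summit was 7 bp for the knockout and 11 bp for CTCF-AID 0 h. The knockout summit was the nearer at 57.3% of these sites and the CTCF-AID 0 h summit at 37.8%. The shortest CTCF-AID 0 h peak was 44 bp, and the part of peak size in these distances was not tested.

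Wild-type ZNF143 presence went with small differences in shift whose direction differed between signal deciles. In the weakest decile the median shift was 5 bp (4 to 6) at 319 pairs with ZNF143 and 11 bp (10 to 11) at 3412 pairs without. In the fifth it was 8 bp (8 to 9) with and 7 bp (7 to 8) without, and in the eighth 7 bp (7 to 7) with and 5 bp (5 to 6) without. These pairs also differed in reads and background. In the weakest group of wild-type rank, the median knockout summit count was 41 reads with ZNF143 and 17 without. Wild-type local background there was 23.3 and 1.15 times the lowest of the list. The part of either in the shifts was not tested.

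**Figure D3:**
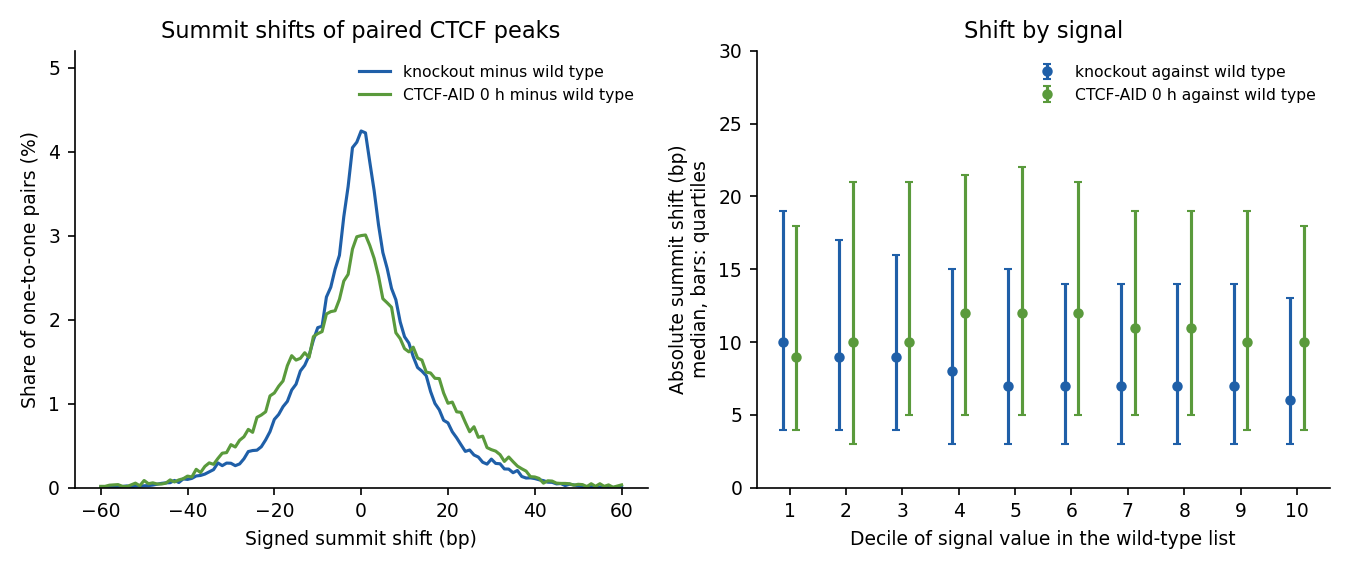
Left, the distribution of signed summit shifts (bp, knockout or CTCF-AID 0 h minus wild type) as the share of one-to-one pairs (%); right, the median absolute shift (bp, bars are quartiles) by signal decile of the wild-type list. Both distributions centre on 0, and the knockout medians run from 10 bp in the weakest to 6 bp in the strongest decile, below those of CTCF-AID 0 h in deciles 2 to 10.

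The largest shifts occurred inside broad peaks, as the overlap rule leaves no room for them in narrow ones. On hg19, the pair at 246885 to 247507 of chromosome 19 had its knockout summit 385 bp above the wild-type summit. At 77512170 to 77513175 of chromosome 18 the shift was -280 bp, at 562216 to 562716 of chromosome 12 it was -265 bp, and at 132600750 to 132601159 of chromosome 6 it was 259 bp. These 4 wild-type peaks were 623, 1006, 501 and 410 bp wide, and their local background was 4.15 to 19.1 times the lowest of the list. Wild-type ZNF143, CTCF-AID 0 h and knockout RAD21 peaks overlapped all 4, and wild-type RAD21 peaks all except that on chromosome 18. Of all shared wild-type peaks, these lists covered 51.8%, 58.6%, 88.0% and 78.6%. Overlap at other peaks of such width was not compared.

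Wild-type-only peaks had a close neighbour more often than shared wild-type peaks, and the knockout classes differed less, in a direction that depended on the distance and setting. Another wild-type peak lay within 1 kb of 16.6% (15.3 to 18.1) of wild-type-only and 7.54% (7.31 to 7.78) of shared wild-type peaks. For the knockout list these shares were 8.95% (8.49 to 9.43) and 8.49% (8.25 to 8.74). The median distance to the nearest peak of the same list was 10388 bp for wild-type-only and 13275 bp for shared wild-type peaks, and 12678 bp for knockout-only and 10946 bp for shared knockout peaks. The nearest neighbour was itself wild-type-only for 10.9% (9.81 to 12.1) of wild-type-only peaks, in a list where 5.44% were of that class. For knockout-only peaks it was 24.9% (24.2 to 25.7), where 22.6% were.

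Raised background moved with the crowding. A local background over 5 times the lowest of the list was found at 12.2% (11.1 to 13.5) of wild-type-only and 3.47% of shared wild-type peaks, against 0.905% of knockout-only and 2.32% of shared knockout peaks. Without such peaks, 8.63% of wild-type-only and 5.98% of shared wild-type peaks had a neighbour within 1 kb. The part of background in the spacing was not tested. For the knockout list these values were 8.43% (7.98 to 8.89) of knockout-only and 7.25% (7.01 to 7.48) of shared peaks. The order turned with both lists at 51970 peaks, to 4.17% (3.70 to 4.67) of knockout-only and 5.11% (4.91 to 5.32) of shared peaks. Within 10 kb, 43.2% of knockout-only and 47.2% of shared knockout peaks had a neighbour.

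Unpartnered peaks in an unbroken row along a chromosome were sought next. Most wild-type-only peaks (81.8%) had no unpartnered peak directly beside them, and 19 rows of 4 or more held 143 of them. The longest row had 33 wild-type-only peaks within 15036 bp, at 42383533 to 42398568 of chromosome 10, with a median local background 82.2 times the lowest of the list and a highest signal of 3.15. Another had 20 within 21154 bp, at 46412829 to 46433982 of chromosome 16, at 54.1 times the lowest. There were 3 rows of 8. On chromosome 2 such a row lay at 92308020 to 92324945, with a background 64.8 times the lowest, on chromosome 7 at 61780844 to 61798806 (9.44 times), and on chromosome X at 61687409 to 61711306 (27.8 times).

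The longest rows of knockout-only peaks had fewer peaks, over more bases. There were 188 rows of 4 or more, which held 833 peaks, 5.80% of the class. The longest had 12 peaks over 107852 bp, at 61121975 to 61229826 of chromosome 7, and the next had 9 over 1609478 bp, at 96947731 to 98557208 of chromosome X. Their median local backgrounds were 2.04 and 1.00 times the lowest of the knockout list.

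Distance to the other list, at any deposited −log10 q, separated near misses from isolated sites. A knockout summit lay within 100 bp of 1.73% of wild-type-only summits and within 10 kb of 54.4%, and the median distance was 8444 bp. Of the knockout-only summits, 4.89% had a wild-type summit within 100 bp and 40.4% within 10 kb, with a median of 14525 bp. The 1.73% and 4.89% were not taken under the same rule. Below the threshold of 5 the wild-type list had 1012 peaks and the knockout list 0, so only knockout-only peaks could overlap a peak left out by it. Of the 14359 knockout-only peaks, 640 did, and 702 had a wild-type summit within 100 bp. How many of these 702 were among the 640 was not tested. No wild-type peak lay within 100 kb of 891 knockout-only peaks (6.21%), and no knockout peak within 100 kb of 56 wild-type-only peaks (1.98%). For comparison, 4.17% of all wild-type and 2.62% of all knockout peaks had no peak of their own list within 100 kb. At any −log10 q the wild-type list held 52982 peaks and the knockout list 63420, and the part of list length was not tested.

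**Figure D4:**
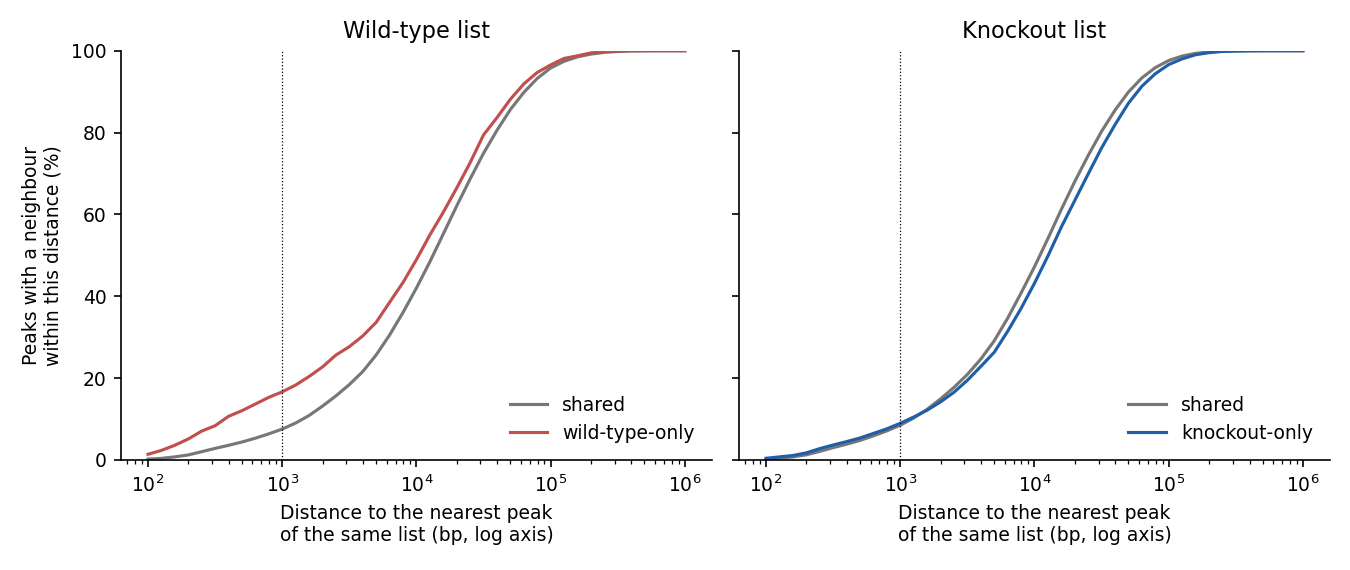
Cumulative share (%) of peaks whose nearest peak of the same list lies within the distance on the x axis (bp, log axis), for shared and unpartnered CTCF peaks of the wild-type list (left) and the knockout list (right); the dotted line marks 1 kb. At 1 kb the wild-type-only curve is at 16.6% and the shared curve at 7.54%, and the knockout-only and shared knockout curves are at 8.95% and 8.49%.

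Unpartnered peaks were spread over all 23 chromosomes, but unevenly. The knockout-only share was lowest on chromosome 8, at 16.2% (14.8 to 17.6), and highest on chromosome 13, at 30.2% (28.0 to 32.4), around a median of 23.5%. The intervals of 7 chromosomes lay above the share of the whole list and those of 6 below it. The wild-type-only share ran the other way, from 3.52% (2.57 to 4.69) on chromosome 13 to 7.76% (6.70 to 8.92) on chromosome 9 and 7.51% on chromosome 8. Chromosome 19 also had a high wild-type-only share, 6.91%, and a low knockout-only share, 17.2%.

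The order of the chromosomes moved with their relative background and with their relative summit counts. At paired sites the median ratio of knockout to wild-type local background was 2.03 for the median chromosome, lowest on chromosome 19 (1.68), 1.72 on chromosome 8, 1.73 on chromosome 9 and highest on chromosome 13 (2.34). Across the 23 chromosomes the ratio had a Spearman rho of 0.841 with the knockout-only share and of -0.855 with the wild-type-only share. These are descriptions over chromosomes that share the same 2 libraries, and without peaks of high background the first was 0.819. The ratio of summit counts, knockout over wild type, ran from 1.67 on chromosome 8 to 2.125 on chromosome 13. Its rho was 0.865 with the knockout-only share and -0.839 with the wild-type-only share. The part of either ratio in the chromosome shares was not tested. Summit shifts did not follow this order, with medians from 7 to 9 bp on every chromosome.

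**Figure D5:**
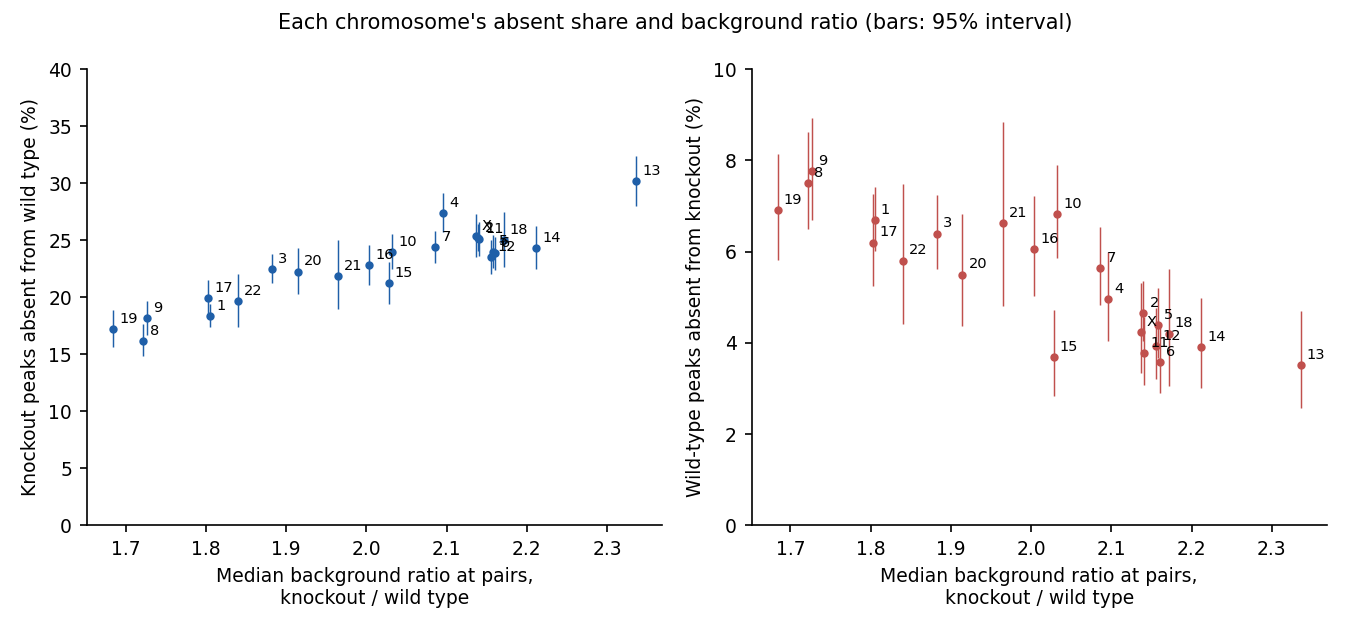
Each point is a chromosome: the share of knockout CTCF peaks absent from wild type (left, %) and of wild-type peaks absent from the knockout (right, %), with exact 95% intervals, against the median ratio of local background at paired peaks, knockout over wild type. Chromosome 13, at a ratio of 2.34, has 30.2% and 3.52%; chromosome 19, at 1.68, has 17.2% and 6.91%.

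The strongest unpartnered peaks with no peak of the other list within 1 kb were taken by rule, 4 for each class. The strongest wild-type-only peak, at 10012 to 10071 of chromosome 7, had a signal of 16.0 and stood at percentile 54.7. It overlapped peaks of wild-type RAD21, knockout RAD21, wild-type ZNF143 and CTCF-AID 0 h, so the position was marked in every other list used. By its coordinates this peak lies near the start of the chromosome sequence, and how well reads map there was not tested. The next had a signal of 15.0, at 109559653 to 109559725 of chromosome 1. The third had 13.8, at 27440949 to 27441007 of chromosome 2, and neither overlapped any of those lists. The fourth, at 2003997 to 2004040 of chromosome 20, had a signal of 13.6 and overlapped knockout RAD21. Their summit counts were 16 to 19 reads.

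The strongest knockout-only peaks stood much higher in their list. The peak at 70042239 to 70042333 of chromosome 15 had a signal of 23.9, percentile 93.2 and 36 reads at the summit, and its nearest wild-type CTCF summit was 20637 bp away. A signal of 22.3 was found at 96446172 to 96446292 of chromosome 14, and one of 21.9 at 93656349 to 93656441 of chromosome 4. The fourth peak, on chromosome 11 at 78971022 to 78971109, had 21.8, and these summits held 33 to 36 reads. All 4 overlapped knockout RAD21, and those on chromosomes 15, 14 and 11 also overlapped wild-type RAD21. The chromosome 4 peak was the most remote, 347577 bp from any wild-type CTCF summit. None of the 4 overlapped wild-type ZNF143 or CTCF-AID 0 h.

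The strongest shared pairs lay at nearly fixed positions. At 9160260 to 9160377 of chromosome 4 the knockout summit was 2 bp below the wild-type summit, at 107183266 to 107183373 of chromosome 14 it was 5 bp below, and at 20273393 to 20273516 of chromosome 22 it was 9 bp above. The remaining pair of the 4, on chromosome 8, was shifted by 3 bp. Their signals were 31.1 to 33.8 in wild type and 27.9 to 28.7 in the knockout, each set within its own list, and all 4 sites overlapped RAD21 of both genotypes, wild-type ZNF143 and CTCF-AID 0 h.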

How the data were processed

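ChIP-nexus peaks were deposited per sample. The submitters' processing notes list cutadapt 2.10, Bowtie2 2.3.5.1, SAMtools 1.12, MACS2 2.2.7.1, deepTools and build hg19, with no settings, and whether cultures were pooled is not given in the sources used here. The signal value deposited by the authors was read as a fold enrichment, a ratio to local background. The authors also deposited −log10 p and −log10 q, and a score that is the whole part of 10 times −log10 q in nearly all peaks. The wild-type list starts at a −log10 q of 3.00 and the knockout list at 5.00, hence the threshold of 5.

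Groups came from sample titles. The members and lists were chosen with earlier results of these data known. Signal was ranked within each list and split into 10 deciles, neighbour distances run between summits, and coordinates are 1-based. Summit count and local background were solved from the signal value and −log10 p, assuming a Poisson model and 1 added to both terms of the ratio. Whole-number counts matched within 0.002 for 100% of peaks, against 1.56% (wild type) and 1.11% (knockout) for counts moved midway between whole numbers. Background per kb is the lowest background over the shortest peak length. Named peaks are the 4 of highest signal in each unpartnered class with no peak of the other list within 1 kb, the 4 pairs whose lower percentile is highest and the 4 largest shifts. Genes, sequences and motifs were not analysed here.

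Scripts ran in Python 3.11.15 with scipy 1.17.1, pandas 2.3.3 and numpy 2.4.6, and matplotlib 3.10.9 drew the plots. On simulated data, 0 of 2000 counts were missed and overlap calls for 600 peaks differed from an all-pairs count at 0. Alternatives were the lists as deposited, a −log10 q of at least 10, a reciprocal overlap of 50%, lists of equal size and, added after seeing the data, the removal of peaks with a local background over 5 times the lowest.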

Additional observations from a re-analysis of the deposited data

Results flagged for a closer look

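Outside the chromosomes compared, 337 wild-type and 340 knockout CTCF peaks past the threshold lay on mitochondrial and unplaced sequences. They were picked out because they are signal in data that entered none of the comparisons, and how many peaks to expect there was not tested. Chromosome Y was not used here either.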

How the results depend on the processing

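Each group had 1 library, so neither library could be left out and counting intervals hold no difference between cultures. The 10 main results were recomputed 50 times in all: 32 values moved by more than their interval and 18 did not. Of 100 values of 20 further results, recomputed by choices made after seeing the data, 63 moved and 37 did not. The order of knockout-only and shared knockout peaks in neighbours within 1 kb turned, from 8.95% and 8.49% to 7.40% and 7.48% at a −log10 q of at least 10 and to 4.17% and 5.11% with lists of equal size. No paired analysis was possible because each group has 1 library and the labels give no replicate numbers.

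With the lists as deposited, 6.02% of wild-type and 21.6% of knockout peaks lacked a partner. At a −log10 q of at least 10 these shares were 2.44% and 29.3%, the median percentiles of wild-type-only and knockout-only peaks were 6.26 and 18.7, their median widths 43 and 59 bp, their shares with a neighbour within 1 kb 18.2% and 7.40%, and the median summit shift 7 bp. With a reciprocal overlap of 50% the shares without a partner were 14.1% and 29.6%, the percentiles 14.6 and 20.2, the widths 38 and 53 bp, the wild-type-only neighbour share 12.9%, the shift 7 bp and the range of the knockout-only share over chromosomes 18.7 percentage points, against 13.99 in the report. With lists of equal size the shares were 12.6% and 12.8%, the percentiles 12.1 and 12.4, the widths 40 and 57 bp and the neighbour shares 21.3% and 4.17%. Without peaks of high local background, 4.97% of wild-type peaks lacked a partner, the knockout-only percentile was 15.9, and the neighbour shares were 8.63% and 8.43%. The cause of these changes was not tested.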
